A study of Mus musculus with 12 samples.

Results

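*Hcn2*, *Hcn3* and *Hcn4* encode pore-forming subunits of the hyperpolarization-activated, cyclic nucleotide-gated (HCN) channels. They were chosen by name, by a rule that uses no measured value but with earlier results of these data known, and are 3 of the 48526 genes counted in each library. Other genes of the family were not analysed here. HCN subunits assemble as tetramers into a cation channel that opens when the membrane becomes more negative and carries the funny current. In HCN2 and HCN4, binding of cAMP to the intracellular end of the subunit eases opening. In the heart the current is best known from the sinoatrial node, where it contributes to diastolic depolarization and to the faster beat under adrenergic drive, and it is also known in Purkinje cells (PCs), the fast-conducting myocytes at the end of the ventricular conduction system. HCN4 is the main subunit of the sinoatrial node, HCN2 is found in working myocardium as well as in brain, and HCN3 has been described at a low level in ventricular myocytes.

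RNA was measured by RNA-seq in 12 libraries from adult male mice, 3 from each of WT PCs, *Ncam-1* knockout (KO) PCs, WT ventricular myocytes (VMs) and KO VMs. *Ncam-1* encodes the neural cell adhesion molecule, and KO mice lacked it constitutively. Mice of all 4 groups also carried the *Cntn2*-EGFP reporter, in which a bacterial artificial chromosome places green fluorescent protein under control of *Cntn2*, a gene of PCs. Hearts were enzymatically dissociated, cells were stained for 15 minutes with 50 nM TMRM, a red dye taken up by mitochondria, and red cells were sorted into PCs if green and VMs if not. The reporter line was kept on a CD1 and the *Ncam-1* line on a C57BL/6 background, and both were crossed. The labels do not say whether a library came from 1 heart or whether PC and VM libraries came from the same hearts, so that p-values measure the spread between these libraries.

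The total count on genes was 13883427 to 42505705 per library, of which 79.0% to 91.3% fell on mitochondrial genes, leaving 1532393 to 6761356 counts on all other genes. After scaling between libraries (TMM), 1 read pair was worth 0.480 to 2.15 normalized counts, so transcripts at the level of the *Hcn* genes were measured with few read pairs. The targeted gene followed the labels: *Ncam1* had 83, 34 and 116 counts in WT PCs and 0, 1 and 1 in KO PCs, 6, 0 and 9 in WT VMs and 0 in each KO VM library. *Cntn2* had 231 to 922 counts in WT PCs, 22 to 677 in KO PCs and 2 to 7 in VMs of both genotypes. 1 WT PC library, replicate 2, had 63.9% of its pairs unaligned (18.8% to 24.7% elsewhere). Its median Spearman correlation with the other libraries was 0.834 (0.893 to 0.909 elsewhere), and 11847 genes had counts in it (13571 to 18129 elsewhere). This library also had the highest mitochondrial share, 91.3%, and the fewest counts on other genes, 1532393. The mean, level per kilobase and log2 fold changes of *Hcn4* that rest on it are given with and without it. Tests of the listed genes and correlations between genes are given with it only.

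The 3 genes lie on different chromosomes (GRCm38). *Hcn2* (ENSMUSG00000020331, chromosome 10, 79716634 to 79736108, plus strand) has 3195 bases of exon. Its end lies 14 bases from that of *Polrmt*, which is on the opposite strand. *Hcn3* (ENSMUSG00000028051, chromosome 3, 89146074 to 89160196, minus strand) has 4154 bases of exon and overlaps *Pklr* on the opposite strand by 711 bases. *Pklr* had 0 counts in all 12 libraries. *Hcn4* (ENSMUSG00000032338, chromosome 9, 58823412 to 58863175, plus strand) has 6118 bases of exon and no overlapping gene. It is on the same chromosome as *Ncam1* (49502136 to 49798925), at a distance of 9.02 Mb.

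The 250 bases before the RefSeq start are shown for *Hcn2* and *Hcn4*, the members that had an entry among the promoter sequences. They span chr10:79716384-79716633 and chr9:58822699-58822948 (GRCm38.p6, plus strand, 5′ to 3′), and capitals mark GC boxes, the letters GGGCGG on either strand, a word bound by Sp1-type factors. *Hcn3* had no entry. The RefSeq start of *Hcn4* lies before its gene start in the annotation given above (58823412), while for *Hcn2* both starts agree. Distances below are from the RefSeq start.
Hcn2: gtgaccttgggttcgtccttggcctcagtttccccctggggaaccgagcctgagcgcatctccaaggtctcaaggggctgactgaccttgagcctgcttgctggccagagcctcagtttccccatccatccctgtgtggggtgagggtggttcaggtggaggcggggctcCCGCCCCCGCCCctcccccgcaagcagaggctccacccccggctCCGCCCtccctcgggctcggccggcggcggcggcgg
Hcn4: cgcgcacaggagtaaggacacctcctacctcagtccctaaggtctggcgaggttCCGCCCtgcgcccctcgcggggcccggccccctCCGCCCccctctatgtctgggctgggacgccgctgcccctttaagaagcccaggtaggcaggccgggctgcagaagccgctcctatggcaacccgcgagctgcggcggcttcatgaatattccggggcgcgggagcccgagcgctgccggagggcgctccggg
Both windows were rich in G and C, with 70.4% for *Hcn2* and 71.2% for *Hcn4*. Of 32851 windows of the same length before mouse genes, 8.79% and 7.83% reached these values. The window of *Hcn2* held 3 GC boxes, with first bases 80, 74 and 36 bases before the start, and that of *Hcn4* held 2, at 196 and 163 bases. At least 1 GC box was in 32.7% of all windows. *Hcn2* also held 1 E-box (CANNTG), at 98 bases, a word found in 66.2% of windows and absent from that of *Hcn4*. All words were searched on both strands. Neither window held the GATA word AGATAA, which was in 9.99% of windows. The ETS word CCGGAAG, in 6.91% of windows, was in neither. The same held for the T-box word GGTGTGA, which 3.33% of windows contained. The NKX2-5 word CAAGTG, in 11.6% of windows and 1 of the words that the E-box pattern covers, was also in neither.

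*Hcn4*, the sinoatrial pacemaker subunit, was higher in each WT PC library than in any VM library. Its normalized counts in WT PCs were 33.1, 96.7 and 36.3, from 69, 45 and 57 read pairs. In WT VMs they were 13.4, 8.30 and 13.0, from 13, 8 and 16 read pairs. All WT PC libraries lay above all WT VM libraries, and replicate 2 of WT PCs stood well above the other WT PC libraries. In KO PCs *Hcn4* stood at 11.6, 15.3 and 34.6, from 6, 11 and 47 read pairs. Replicate 3 of KO PCs was inside the WT PC range and replicates 1 and 2 were within the range of the VM libraries. In KO VMs it stood at 20.3, 12.7 and 6.38, from 13, 9 and 5 read pairs, and these libraries overlapped both KO PCs and WT VMs. In order of the group mean, *Hcn4* was at 55.4 ± 35.8 in WT PCs, 20.5 ± 12.3 in KO PCs, 13.1 ± 6.95 in KO VMs and 11.6 ± 2.86 in WT VMs (SD, n = 3 each). Neighbouring groups in this order overlapped. Without replicate 2 of WT PCs the WT PC mean was 34.7 (n = 2).

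*Hcn2*, the subunit known from working myocardium and brain, was detected in all 12 libraries and reached its highest values in WT PCs. Normalized counts in WT PCs were 31.2, 25.8 and 15.3, from 65, 12 and 24 read pairs. In WT VMs they were 10.3, 13.5 and 9.78, from 10, 13 and 12 read pairs. As for *Hcn4*, the WT PC libraries all lay above the WT VM libraries, but the lowest WT PC library was close to the highest WT VM library. In KO PCs *Hcn2* stood at 7.75, 15.3 and 19.9, from 4, 11 and 27 read pairs, a range that took in all VM libraries. In KO VMs it stood at 14.0, 14.2 and 14.0, from 9, 10 and 11 read pairs. The spread of the KO VM libraries was smaller than counting error, since their 95% Poisson intervals together ran from 6.41 to 26.6. The group means were 24.1 ± 8.10 in WT PCs, 14.3 ± 6.13 in KO PCs, 14.1 ± 0.0693 in KO VMs and 11.2 ± 2.0 in WT VMs (SD, n = 3 each), and KO VMs, though close to WT VMs, did not overlap them.

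*Hcn3*, the third member, was at the limit of what these libraries could measure. It had 0, 2 and 0 read pairs in WT PCs, 0, 3 and 0 in KO PCs, 2, 0 and 2 in WT VMs and 0 in each KO VM library. No library exceeded the floor of 3 counts, and it was below the minimum for testing, a mean normalized count of 5, in all 7 comparisons. Nothing can be said of a difference between groups, and a count of 0, taken at the floor of 3 counts, allowed up to 1.44 to 5.81 normalized counts in the PC libraries where it was 0 and up to 3.11 to 4.68 in such VM libraries. These limits cover counting error only.

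**Figure D1:**
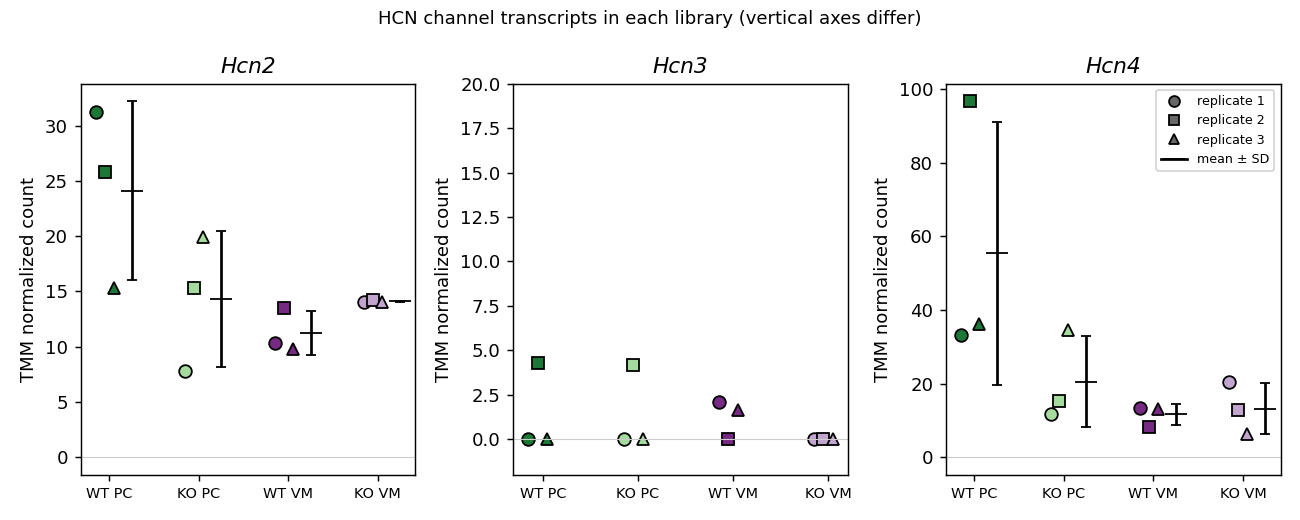
TMM normalized counts (vertical axes, which differ) of *Hcn2*, *Hcn3* and *Hcn4* in the 12 libraries, with a marker for each replicate and, for *Hcn2* and *Hcn4*, the group mean ± SD. *Hcn4* reached 96.7 in replicate 2 of WT PCs, against at most 20.3 in the VM libraries, while *Hcn3* stayed at 4.30 or less.

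In WT hearts the transcript of *Hcn4* was 4.49-fold higher in PCs than in VMs and that of *Hcn2* 2.09-fold higher. The log2 fold changes were 2.17 for *Hcn4* (SE 0.581) and 1.07 for *Hcn2* (SE 0.573). By edgeR's quasi-likelihood test *Hcn4* had an unadjusted p of 0.00455, rank 105 of 12035 genes, and an adjusted p of 0.522 (Benjamini-Hochberg over all genes tested). *Hcn2* had an unadjusted p of 0.0950 and an adjusted p of 0.808. Of all genes tested 0.108% passed an adjusted p of 0.05 and 6.31% an unadjusted p of 0.05. At the second threshold 612 genes were higher and 147 lower in PCs. Of the members none passed the first threshold and *Hcn4* passed the second. DESeq2 on the same genes gave *Hcn4* an adjusted p of 0.0451, so the call depended on the tool. Separation of all 3 PC from all 3 VM libraries gives an exact two-sided permutation p of 0.10, the smallest this design allows, for both genes. The share of all genes whose libraries separated in this way was not counted, so the separation is a description. Without replicate 2 of WT PCs, the library with many unaligned pairs, the log2 fold change of *Hcn4* was 1.55 (unadjusted p 0.00332, edgeR) and that of *Hcn2* was 1.04.

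In KO hearts the difference between cell types was smaller for both genes and not past either threshold. *Hcn4* was 1.65-fold higher in PCs, a log2 fold change of 0.72 (SE 0.608, unadjusted p 0.253, adjusted p 0.781, edgeR). *Hcn2* was at a log2 fold change of 0.08 (SE 0.580, adjusted p 0.984, edgeR). The value of *Hcn4* rested on replicate 3 of KO PCs, without which it was 0.07, and that of *Hcn2* was -0.25 without this library. The share of all genes past the thresholds was 0.863% adjusted and 9.72% unadjusted, the latter with 776 genes higher and 282 lower in PCs.

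Over both genotypes *Hcn4* was 2.82-fold higher in the 6 PC libraries than in the 6 VM libraries, with medians of 33.9 and 12.9 normalized counts. PC libraries ranged from 11.6 to 96.7 and VM libraries from 6.38 to 20.3, so that the ranges met at the lower PC libraries, which were KO PCs. The log2 fold change was 1.50 (SE 0.461, unadjusted p 0.00490, rank 414 of 11533 genes, adjusted p 0.137, edgeR). The exact permutation test within genotype gave a two-sided p of 0.0250, where 0.00500 is the smallest possible over 400 relabellings. Without replicate 2 of WT PCs the log2 fold change was 1.15 (unadjusted p 0.00591, edgeR). The adjusted p was 0.0334 by DESeq2, 0.0326 by limma voom with sample weights and 0.0308 by edgeR with no filter on low counts. With each library left out in turn the exact p of *Hcn4* was 0.0200 to 0.0550, the last without replicate 2 of WT VMs. For *Hcn2* the PC libraries ranged from 7.75 to 31.2 (median 17.6) and the VM libraries from 9.78 to 14.2 (median 13.8). Its log2 fold change was 0.60 (SE 0.390, unadjusted p 0.141, adjusted p 0.602, edgeR), with an exact permutation p of 0.165. Without replicate 1 of KO PCs, in which *Hcn2* had 4 read pairs and its lowest PC value, the exact permutation p was 0.00500 (unadjusted p 0.0587, edgeR). The exact p was 0.0950 to 0.320 with each other library left out in turn. The background was 1.34% of genes past the adjusted and 11.7% past the unadjusted threshold. At the unadjusted threshold 1012 genes were higher and 336 lower in PCs, and of the members only *Hcn4* passed it.

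The second question was the effect of loss of *Ncam-1*. In PCs *Hcn4* was 2.52-fold lower in KO than in WT, with 2 of 3 KO libraries below the WT range. The log2 fold change was -1.33 (SE 0.651, unadjusted p 0.0669, adjusted p 0.995, edgeR), and the exact permutation p was 0.200. *Hcn2* was 1.63-fold lower, a log2 fold change of -0.71 (SE 0.683, unadjusted p 0.325, edgeR), with an exact permutation p of 0.300. Neither decrease was larger than the spread between libraries by these tests. The value of *Hcn4* depended on single libraries: it was -2.02 without replicate 3 of KO PCs (unadjusted p 0.0295, edgeR) and -0.69 without replicate 2 of WT PCs (unadjusted p 0.225, edgeR). The unadjusted p of *Hcn4* was 0.0442 by DESeq2, and by edgeR 0.0444 with no filter, 0.0358 in a single fit of all 12 libraries and 0.0478 without replicate 1 of WT PCs, all on the other side of the threshold used by the study. In this comparison 0% of 12093 genes passed the adjusted threshold by edgeR, and DESeq2 called 7 genes. An unadjusted p of 0.05 was passed by 394 genes or 3.26%, none of them members. Of these genes 327 were lower and 67 higher in KO PCs, so most shared the direction of *Hcn4* and *Hcn2*.

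In VMs neither gene passed a threshold between genotypes. *Hcn4* had a log2 fold change of 0.14 (SE 0.550, adjusted p 0.998, edgeR), which became -0.30 without replicate 1 of KO VMs. *Hcn2* had a log2 fold change of 0.32 (SE 0.492, adjusted p 0.986, edgeR). All KO VM libraries exceeded all WT VM libraries for *Hcn2*, with an exact permutation p of 0.10, the smallest possible, and a gap of less than 1 read pair between the closest libraries. How many of all genes separated in this way was not counted. Here 0.0371% of genes passed the adjusted and 5.14% the unadjusted threshold. Over both cell types the log2 fold change of KO over WT was -0.66 for *Hcn4* (SE 0.458, adjusted p 0.922, edgeR) and -0.21 for *Hcn2* (SE 0.391, adjusted p 0.969, edgeR), where 0.0347% and 5.0% of genes passed. The exact permutation p was 0.185 and 0.535. Without replicate 2 of WT PCs the value for *Hcn4* was -0.29.

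The estimated genotype effect was lower in PCs than in VMs for both genes, by 1.48 on the log2 scale for *Hcn4* and by 1.03 for *Hcn2*. The interaction term had a SE of 0.860 and an unadjusted p of 0.104 for *Hcn4*, and a SE of 0.766 and an unadjusted p of 0.198 for *Hcn2* (edgeR, adjusted p 0.999 for both). The exact permutation test on mean log2 values gave a p of 0.140 for *Hcn4* and 0.0300 for *Hcn2*. Without replicate 2 of WT PCs the interaction term of *Hcn4* was -0.83 (unadjusted p 0.289, edgeR), and without replicate 3 of KO PCs it was -2.14 (unadjusted p 0.0333, edgeR). The exact test relabels genotypes within each cell type, so that its null is no genotype effect in either, and it does not test the difference between the effects alone. For *Hcn2* the KO libraries were lower on average in PCs and higher in VMs. With each library left out in turn, the exact p for *Hcn2* was 0.0250 to 0.130, and at or above 0.05 in 9 of 12 cases, with 0.0850 without replicate 2 of WT PCs. Of all genes 0% passed the adjusted threshold for the interaction by edgeR and by DESeq2, and 340 genes or 2.95% the unadjusted one, none of them members.

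**Figure D2:**
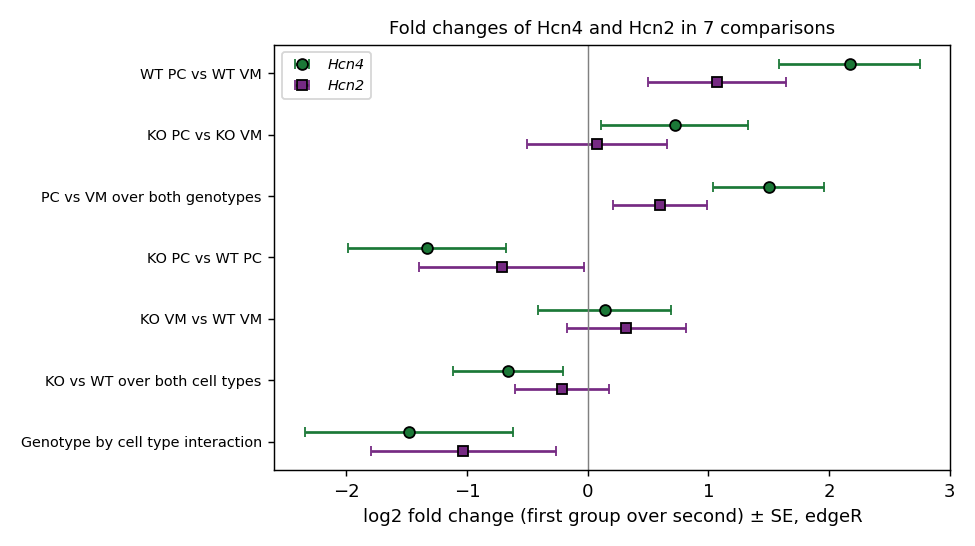
Log2 fold change (horizontal axis, first group over second) of *Hcn4* and *Hcn2* in the 7 comparisons, with bars for ± SE from edgeR. Values for *Hcn4* run from 2.17 in WT PCs over WT VMs to -1.48 for the interaction, with *Hcn2* nearer to 0 than *Hcn4* in each comparison other than KO over WT in VMs.

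Levels of different genes were compared per kilobase of exon. In WT PCs *Hcn4* stood at 9.05 ± 5.86 and *Hcn2* at 7.54 ± 2.54 normalized counts per kilobase. This order rested on replicate 2 of WT PCs, without which the means were 5.68 for *Hcn4* and 7.28 for *Hcn2* (n = 2, chosen after the data were seen). In KO PCs they stood at 3.35 ± 2.02 and 4.48 ± 1.92. In VMs the order was the same as in KO PCs, with *Hcn4* at 1.89 ± 0.467 in WT and 2.15 ± 1.14 in KO, and *Hcn2* at 3.51 ± 0.625 and 4.40 ± 0.0217 (SD, n = 3 each). Within a library the ratio of *Hcn4* to *Hcn2* per kilobase exceeded 1 in replicates 2 and 3 of WT PCs, at 1.96 and 1.24, and was 0.237 to 0.909 in the other 10. *Hcn3* reached at most 1.04 per kilobase.

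The share of *Hcn4* among the read pairs of both genes needs no scaling between libraries. It was added after the data were seen. In WT PCs it was 51.5%, 78.9% and 70.4%, of 134, 57 and 81 read pairs. In KO PCs it was 60.0%, 50.0% and 63.5%, of 10, 22 and 74 read pairs. In WT VMs it was 56.5%, 38.1% and 57.1%, and in KO VMs 59.1%, 47.4% and 31.2%, of 16 to 28 read pairs. Shares overlapped between all pairs of groups, and the exact binomial 95% interval was widest in replicate 1 of KO PCs, from 26.2% to 87.8%. The group means were 66.9 ± 14.0% in WT PCs, 57.8 ± 7.01% in KO PCs, 50.6 ± 10.8% in WT VMs and 45.9 ± 14.0% in KO VMs (SD, n = 3 each). PCs exceeded VMs by 14.1 percentage points over both genotypes, with an exact permutation p of 0.0750, and by 11.1 without replicate 2 of WT PCs, so the mix of both transcripts was not shown to differ between cell types.

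**Figure D3:**
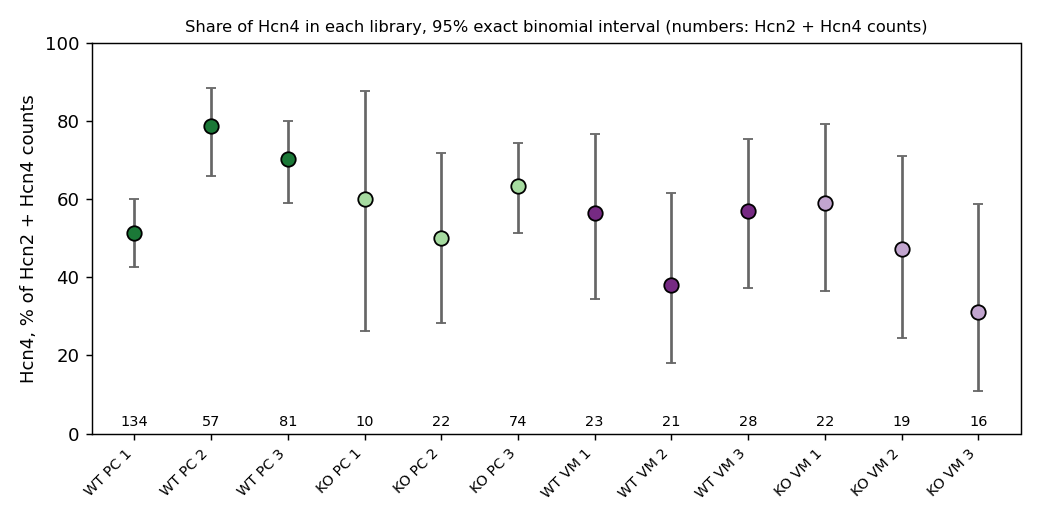
Share of *Hcn4* in the summed *Hcn2* and *Hcn4* read pairs (vertical axis, %) of each of the 12 libraries, with the exact binomial 95% interval as a bar and the summed count printed at the foot. The highest shares are 78.9% and 70.4% in WT PCs, and the intervals of most libraries include 50.0%.

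*Hcn4* was set beside *Cntn2*, the gene whose regulatory sequence drives the reporter used for the sort. *Cntn2* was at 261, 497 and 587 normalized counts in WT PCs and at 42.6, 54.3 and 499 in KO PCs. The KO PC library with high *Cntn2*, replicate 3, was also the one in which *Hcn4* was inside the WT PC range. *Gja5*, the connexin of PCs, was at 57.2, 49.4 and 93.6 in WT PCs and 25.2, 5.57 and 102 in KO PCs. *Hcn2* was likewise highest in replicate 3 among the KO PC libraries. The sum of 7 PC markers was 1100 to 3620 in WT PCs, 346 to 1730 in KO PCs and 83 to 126 in VMs. In bulk libraries fewer PCs in a sort and less transcript per PC cannot be told apart.

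**Figure D4:**
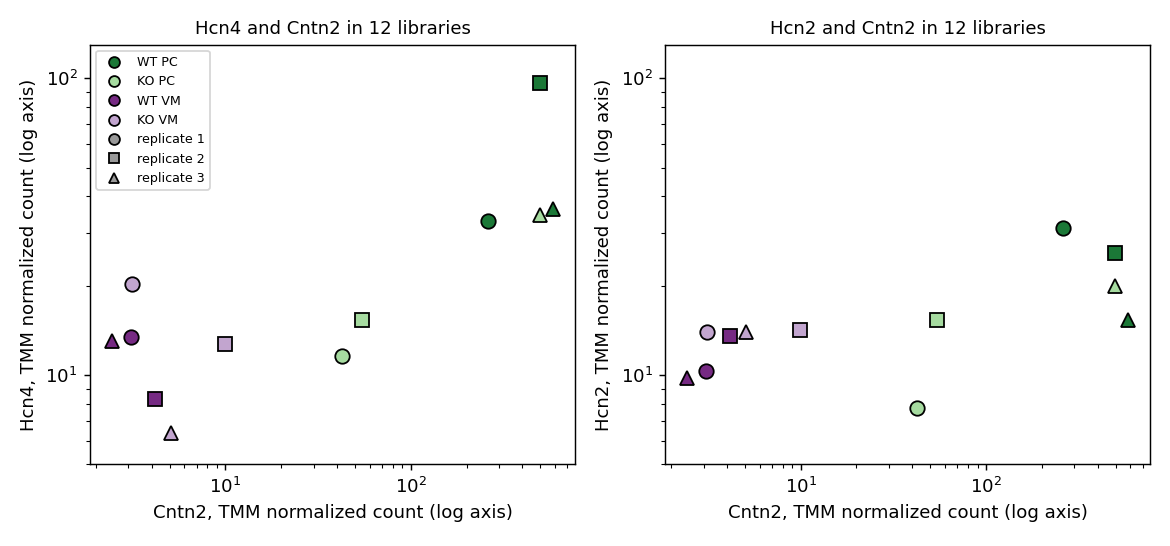
Normalized counts of *Hcn4* (left) and *Hcn2* (right) against those of *Cntn2* in the 12 libraries, on log axes, with colours for the groups and markers for the replicates. Replicate 3 of KO PCs, at 499 for *Cntn2* and 34.6 for *Hcn4*, lies among the WT PC libraries, and the other KO PC libraries lie at 42.6 and 54.3 for *Cntn2*.

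Transcripts of other cell types also moved with the cell type comparison. The summed level of 6 fibroblast markers was 611 to 1420 in PC libraries and 60.8 to 391 in VM libraries, that of 6 leukocyte markers 258 to 664 and 10.9 to 154, that of 6 endothelial markers 524 to 1690 and 71.7 to 541, and that of 6 smooth muscle and pericyte markers 1090 to 2680 and 271 to 1070. None of these genes was at 0 in every library. In WT PCs *Dcn* made up 825 of the mean fibroblast sum of 1060, and *Lyz2* 327 of the leukocyte sum of 416. *Rgs5* made up 859 of the smooth muscle and pericyte sum of 1370. Of the 6 genes in that last list, 3 were higher in PCs over VMs across genotypes at an unadjusted p under 0.05 (edgeR). Of 7 neuron and glia markers, *Th*, *Tubb3*, *Prph* and *Sox10* were at 0 in all libraries and the sum was at most 50.3. Of 8 atrial and nodal markers, *Isl1* was at 0 in all libraries and the sum was 128 to 1110 in PCs and 81.7 to 325 in VMs. Its largest terms in WT PCs were *Myl7* and *Myl4*, at means of 286 and 241, while *Shox2* was at 1.06. *Tbx3*, of the same list, had means of 41.9 in WT PCs and 37.2 in KO PCs, against 18.9 in WT VMs and 19.1 in KO VMs. *Tbx18* was at 9.08 in WT PCs, 11.9 in KO PCs, 10.7 in WT VMs and 8.93 in KO VMs. With *Myl7* and *Myl4* as its largest terms, the sum does not measure nodal cells, which are rich in *Hcn4*. Whether the PC libraries held nodal cells was not tested. The 7 myocyte markers summed to 181000 to 233000 in all libraries. The part of these cells in the levels of *Hcn2* and *Hcn4* was not tested.

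Genes that act with HCN channels were read from 4 lists. The first held 10 proteins that bind or modulate the channels, of which 6 could be tested. *Kcne2*, a small accessory subunit, had 0 counts in all 12 libraries, and *Pex5l*, which encodes the trafficking partner TRIP8b, had at most 3. Over both genotypes none of the 6 passed the adjusted threshold in PCs over VMs, where *Hcn4* also failed it. *Flna*, which encodes the actin-binding filamin A, had a log2 fold change of 1.17 (adjusted p 0.0516) and *Vapb*, a membrane protein of the endoplasmic reticulum, of -0.35 (adjusted p 0.276). *Flna* was at 1.30 in WT and 0.98 in KO hearts (adjusted p 0.608 and 0.326), and *Cav3*, caveolin of muscle, at -0.54 in KO PCs over KO VMs (adjusted p 0.461). In KO over WT PCs *Cav3* was the only 1 of the 6 at an unadjusted p under 0.05, beside 3.26% of all genes, with a log2 fold change of -0.88 (adjusted p 0.995, edgeR). Across cell types KO over WT was -0.47 for *Cav3* and 0.33 for *Vapb* (adjusted p 0.922 for both).

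The second list held 25 genes of cAMP supply and breakdown, the ligand of HCN channels, and 0 of the 20 to 22 tested passed the adjusted threshold in any of the 7 comparisons by edgeR. At an unadjusted p of 0.05, 1 was higher and 2 were lower of 21 in PCs over VMs across genotypes, near the 11.7% of all genes, with *Adcy4*, an adenylyl cyclase, at 1.88, *Pde3a*, a phosphodiesterase, at -0.65 and *Prkar1a*, a regulatory subunit of protein kinase A, at -0.28. *Adcy4* was near the floor, with at most 24 counts in a PC library and at most 6 in a VM library. In WT hearts alone *Adora1* was at 1.21, *Gnai2* at 0.61, *Prkar1a* at -0.49 and *Pde3a* at -0.94, and in KO hearts *Chrm2*, the muscarinic receptor of the heart, was at -0.33 and *Pde3a* at -0.39 (adjusted p 0.264 to 0.783). In KO over WT PCs *Adora1*, an adenosine receptor, was at -1.33 (unadjusted p 0.0365, adjusted p 0.995, edgeR). *Prkar1a* was at -0.28 in KO over WT VMs, *Pde4a* at 0.45 across cell types and *Gnai2* at -0.85 for the interaction, with adjusted p of 0.922 to 0.999.

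Of 14 transcription factors of the pacemaker and conduction programme, 12 were tested. In PCs over VMs across genotypes 1 of them passed the adjusted threshold, beside 1.34% of all genes. *Etv1*, an ETS factor of fast-conducting myocytes, rose in PCs over VMs by 3.14 on the log2 scale across genotypes (SE 0.384, adjusted p 6.14e-04, edgeR), and it passed in WT (3.56, adjusted p 0.0300) and KO hearts (2.63, adjusted p 0.0136) as well. *Tbx3*, a T-box repressor of the working myocyte programme that is known from nodal cells, was at 1.09 and *Id2* at 1.90 (unadjusted p 0.0392 and 0.00631), and *Mef2c* was at -0.53 (unadjusted p 0.00846), all with adjusted p of 0.154 to 0.385. *Etv1* was at -1.27 in KO over WT PCs (unadjusted p 0.0438, adjusted p 0.995, edgeR), and at -0.88 across cell types (adjusted p 0.922). In KO over WT PCs 4 of the 7 PC markers, *Etv1* among them, were lower at an unadjusted p under 0.05 and 0 were higher (edgeR). The others were *Slit2* at -1.96, *Sema3a* at -1.74 and *Scn10a* at -1.29 (adjusted p 0.995 for each), where *Hcn4* was at -1.33. *Irx3* was at 0.98 in KO over WT VMs (adjusted p 0.929). In WT hearts alone *Id2* was at 2.19 and *Mef2c* at -0.89 (adjusted p 0.733 and 0.609).

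The fourth list held 10 genes of other currents of the diastolic potential, all tested. *Cacna1h*, a T-type calcium channel, rose in PCs over VMs across genotypes by 2.38 on the log2 scale (SE 0.541, adjusted p 0.0404, edgeR), which makes 1 of 10 past the adjusted threshold, beside 1.34% of all genes. *Cacna1g*, the other T-type channel measured, was at 1.54 (adjusted p 0.0506), close to the 1.50 of *Hcn4*. *Ryr2*, the calcium release channel, was at -0.55 (adjusted p 0.117) and *Kcnj3*, a subunit of the acetylcholine-gated potassium channel, at -0.29 (adjusted p 0.379). In WT hearts *Cacna1g* was at 2.33 and *Cacna1h* at 2.67 (adjusted p 0.216 and 0.603), and in KO hearts *Cacna1h* was at 2.04, *Ryr2* at -0.54, *Kcnj3* at -0.39 and *Kcnj2* at -0.42 (adjusted p 0.155 to 0.428). In KO over WT VMs *Kcnj3* was at 0.57, *Ryr2* at 0.48 and *Cacna1g* at 1.01 (adjusted p 0.664 to 0.929). In KO over WT hearts across cell types *Kcnj3* was at 0.48 and *Ryr2* at 0.50 (adjusted p 0.729 and 0.922, edgeR). *Cacna1g* had an interaction term of -1.61 (unadjusted p 0.0202, adjusted p 0.999, edgeR). It was the only 1 of the 10 at an unadjusted p under 0.05 there, beside 2.95% of all genes. The median log2 fold change of PCs over VMs across genotypes was -0.11, 0.02, 0.07 and -0.21 in the 4 lists in this order, against 0.02 over all genes tested and 1.50 and 0.60 for *Hcn4* and *Hcn2*.

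In WT PCs over WT VMs the tested genes beside *Hcn2* and *Hcn4* had log2 fold changes nearer to 0 than these members. *Polrmt*, the mitochondrial RNA polymerase beside *Hcn2*, had a log2 fold change of 0.01 (SE 0.529), against 1.07 for *Hcn2*. In KO PCs over KO VMs it was at -0.75 (SE 0.423), against 0.08. *Neo1*, the nearest measured gene to *Hcn4*, was at -0.17 in WT PCs over WT VMs (SE 0.312), against 2.17. *Clk2*, beside *Hcn3*, was at -0.29 (SE 0.534), and *Bsg*, before *Hcn2*, at -0.06 (SE 0.283). *Rec114*, on the other side of *Hcn4*, had at most 7 counts.

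The genes whose log2 values followed *Hcn4* most closely over the 12 libraries were *Galnt18* (Pearson r = 0.944), *Stard10* (0.923), *Pcp4* (0.922), *Pnisr* (0.909) and *Ephb3* (0.908), among 8351 genes with a mean normalized count above 20. For *Hcn2* they were *Zkscan17* (0.891), *Nelfcd* (0.889), *Timp2* (0.886), *Ube3b* (0.880) and *Dubr* (0.856). The lists of *Hcn4* and *Hcn2* had no gene in common. *Hcn2* and *Hcn4* had a Pearson r of 0.703 and a Spearman rho of 0.678 with each other. The points share library, depth and sort, and these values are a description.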

How the data were processed

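The deposited files held, per the labels, raw counts of read pairs per gene that the authors made with STAR 2.5.0c on mm10 and HTSeq 0.6.0 from paired reads of 50 bases. RNA was amplified, no molecular identifiers are stated, and the strand setting is not given in the sources used here. Read pairs on no gene (40.0% to 73.6%) were left out.

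Counts were scaled by TMM and tested with edgeR 4.0.16 (R 4.3.3), each comparison on its own libraries with a mean normalized count above 5, and p-values were adjusted over all genes tested. Standard errors were derived from the F statistic. Exact two-sided permutation tests used log2(normalized count + 2), and relabelled within the other factor where 12 libraries entered. DESeq2 1.42.0, limma 3.58.1 and other settings were alternatives. Code was tested on simulated counts. Libraries were not treated as pairs. Positions came from GENCODE M21, in which 468 gene identifiers were not found, and promoters from RefSeq. Genes were named if their adjusted p was under 0.05, or with the 4 smallest unadjusted p-values under 0.05 of a list, together with neighbours, checks and the 5 genes most like a member. The members and lists were chosen with earlier results of these data known.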

Additional observations from a re-analysis of the deposited data

Results flagged for a closer look

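*Hcn2* was picked out by an exact permutation test that relabels genotypes within each cell type, whose null is no genotype effect in either cell type. It does not test the difference between the effects alone. The mean log2 difference of KO from WT was lower in PCs than in VMs, and the difference of differences was -1.0 (two-sided exact p = 0.0300 over 400 relabellings, where 0.00500 is the smallest possible). The interaction term of edgeR for the same gene had an unadjusted p of 0.198 and an adjusted p of 0.999, so a difference between cell types was not shown. The exact p was at or above 0.05 without 9 of the 12 libraries. Each KO VM library of *Hcn2* had 9 to 11 read pairs and each WT VM library 10 to 13.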

How the results depend on the processing

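Of 240 alternative values of the log2 fold changes of *Hcn2* and *Hcn4*, 234 kept their direction and 4 passed the adjusted threshold, all of *Hcn4* in PCs over VMs. DESeq2 gave *Hcn4* 2.24 in WT (adjusted p 0.0451) and 1.54 across genotypes (0.0334), where edgeR with no filter gave 1.50 (0.0308) and limma voom 1.33 (0.0326). With all libraries, the adjusted p of *Hcn4* was 0.0451 to 0.857 over the alternatives in WT and 0.0308 to 0.231 across genotypes. With single libraries left out it was 0.157 to 0.999 and 0.101 to 0.361. The 6 reversals were of values near 0. *Hcn2* in KO PCs over KO VMs was -0.02 after thinning to the smallest library and -0.25 to 0.33 with single libraries left out. *Hcn4* in KO over WT VMs was -0.18 by limma voom, -0.02 without replicate 2 of WT VMs, and -0.30 to 0.50 over all left-out libraries. *Hcn2* in KO over WT was 0.03 across cell types by limma voom. The causes were not tested.

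On mean log2 values with single libraries left out, PCs minus VMs was 1.01 to 1.39 for *Hcn4* and 0.30 to 0.61 for *Hcn2*, and the interaction of *Hcn2* was -1.26 to -0.67. The exact p of that interaction was at or above 0.05 without 9 of the 12 libraries. The exact p of *Hcn2* in PCs over VMs was 0.00500 without replicate 1 of KO PCs and 0.0950 to 0.320 without each other library. That of *Hcn4* was 0.0550 without replicate 2 of WT VMs. The *Hcn4* share differed by 10.5 to 18.0 percentage points between PCs and VMs, with an exact p of 0.0200 without replicate 1 of WT PCs and 0.0400 without replicate 1 of KO VMs. Counts relative to the total outside mitochondrial genes and a pseudocount of 0.5, added after the data were seen, changed no call.

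The labels do not say whether replicate numbers pair the libraries, and the libraries were not treated as pairs. Between WT PCs and WT VMs, correlations of deviations were 0.0814 to 0.205 for libraries of the same number and -0.167 to 0.0216 for others, so each library correlated best with its own number, while in KO they were -0.0158 to 0.120 and -0.127 to 0.0905. Every fit with the replicate block kept the direction and side of the threshold for both genes (*Hcn4* 2.02 in WT PCs over WT VMs, 1.48 across genotypes). The block moved the count of called genes from 13 to 4 in WT PCs over WT VMs from 0 to 1 in KO over WT PCs and from 4 to 7 in KO over WT VMs. The number of genes called was highest with no filter on low counts in each comparison (297, 326, 592, 132, 47, 130 and 19, against 13, 94, 155, 0, 4, 4 and 0), in the order WT PCs over VMs, KO PCs over VMs, both, KO over WT in PCs, in VMs, in both, and the interaction. DESeq2 called 114 genes in WT PCs over VMs, 462 across genotypes, 7, 10 and 15 for KO over WT, and limma voom 131 in WT PCs over VMs, 457 across genotypes and 10 for KO over WT in both cell types. A single fit of all libraries called 39, 1, 3 and 1 genes in the pairwise comparisons. Leaving out replicate 2 of WT PCs raised the count to 108 in WT and 397 across genotypes, and left-out libraries gave 1 to 108 and 72 to 397 there, 19 to 150 in KO hearts, and 0 to 4, 2 to 10 and 4 to 12 for KO over WT. Only 2 of the 5 genes most like each member stayed with Spearman correlation. Depth limits all values: in VMs each rested on 16 read pairs or fewer.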
